A study of Homo sapiens with 15 samples.

Results

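LTF, PEX5L, ABTB1, PKN3 and COL9A2 are 5 of the 26364 genes of a time course of KB528 in RPMI-8226 cells, and they were chosen by their change of transcript level from DMSO to 24 h, as some of the largest increases there. LTF encodes lactoferrin, an iron-binding protein of the transferrin family that is stored in the granules of neutrophils and secreted into milk. PEX5L encodes TRIP8b, a brain-enriched relative of the peroxisomal import receptor PEX5 and an auxiliary subunit of HCN pacemaker channels. ABTB1 encodes a protein with ankyrin repeats and BTB domains, the type of domain by which substrate adaptors join CUL3 ubiquitin ligases. PKN3 encodes a serine/threonine kinase of the protein kinase N family, which acts downstream of PI3K. COL9A2 encodes one of the chains of type IX collagen, which in cartilage coats the surface of type II collagen fibrils. None of the 5 is a marker of plasma cells, the cell type from which myeloma arises.

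RPMI-8226 is an established human multiple myeloma line, labelled wild type in every group. The cells received 100 nM KB528, named in the labels as an inhibitor of the lysine acetyltransferase activity of p300, for 1, 3, 6 or 24 h, or DMSO at 0 h, and each of the 5 groups held 3 libraries of messenger RNA, 15 in all. p300 is a coactivator that acetylates histones and transcription factors at enhancers and promoters, and loss of its activity is known mainly for lowering the transcription of enhancer-driven genes. The DMSO columns of the deposited table are named as untreated at 0 h, and DMSO was sampled at 1 time, so time in culture and KB528 cannot be told apart. Whether the 3 libraries of each group stem from different cultures is not said in the labels. The p-values therefore reflect the spread among libraries alone, and that spread may be technical.

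Levels are TPM, transcript abundances with transcript length and library size divided out, so levels of different genes can be set side by side. From steps in the lowest values, a single read of a transcript 1000 bases long was worth 0.0311 to 0.0458 TPM, and libraries had 0.759 to 1.12 times the depth of DMSO replicate 1. Each library held 11616 to 12356 genes at 1 TPM or more, and the spike-in RNAs took 9.35% to 16.6% of the TPM. Plasma cell markers were present, with MZB1 at 2618 ± 87.7 TPM and SDC1 at 243 ± 17.4 TPM in DMSO (SD, n = 3). All 5 chosen genes were above 1 TPM in every DMSO library and passed the filter (mean level of 1 TPM or more), which left 12002 genes for testing. Changes are differences of log2(TPM + 1), with adjusted p-values from limma over these genes and a threshold of 0.05.

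The rule for choosing the genes used the 24 h and DMSO libraries, so their values at 24 h are described without a test. By the change at 24 h, LTF stood at rank 1 of 12002, PEX5L at 7, ABTB1 at 11, PKN3 at 14 and COL9A2 at 16. Among the 9320 genes whose mean level reached 5 TPM they took 5 of the 8 highest places, which they shared with CXCL10, AKR1C1 and HMOX1. The lowest of the 5, COL9A2, had a change of 1.60, and the highest of the genes just outside that reached this mean were SDHAF4 at 1.55 and LINC01484 at 1.55, then ID3 at 1.52 and AKR1C3 at 1.50. Over all tested genes the next below was the small RNA gene MIR503 at 1.58, while 5 genes of lower mean level, WSB2 (1.70), PFN2 (1.70), MIR138-1 (1.65), ZNF362 (1.64) and MIR4263 (1.60), ranked just above COL9A2 without being among the chosen.

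The regions upstream of the starts of these genes are shown because the genes shared a high level at 24 h while their earlier courses differed. Of the 5 genes, 4 had a sequence in the RefSeq promoter table for GRCh38.p14. Each line holds the 250 bases before the start nearest to the principal GENCODE transcript, read 5′ to 3′ on the strand of the gene, with matches to any of 8 short motifs in capitals. The LTF window lies at chr3:46464906-46465155 on the minus strand, that of PEX5L at chr3:180036938-180037187 on the minus strand, that of PKN3 at chr9:128702253-128702502 on the plus strand and that of COL9A2 at chr1:40317287-40317536 on the minus strand.
LTF: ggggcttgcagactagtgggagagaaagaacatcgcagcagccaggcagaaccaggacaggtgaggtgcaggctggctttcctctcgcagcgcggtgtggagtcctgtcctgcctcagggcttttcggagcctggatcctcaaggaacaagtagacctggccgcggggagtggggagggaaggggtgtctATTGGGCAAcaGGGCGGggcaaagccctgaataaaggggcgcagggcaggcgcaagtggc
PEX5L: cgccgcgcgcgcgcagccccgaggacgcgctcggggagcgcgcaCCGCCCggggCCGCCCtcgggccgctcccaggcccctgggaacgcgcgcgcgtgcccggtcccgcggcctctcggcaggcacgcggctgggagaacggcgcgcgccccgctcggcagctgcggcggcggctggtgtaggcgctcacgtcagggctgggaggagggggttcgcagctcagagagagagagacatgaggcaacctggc
PKN3: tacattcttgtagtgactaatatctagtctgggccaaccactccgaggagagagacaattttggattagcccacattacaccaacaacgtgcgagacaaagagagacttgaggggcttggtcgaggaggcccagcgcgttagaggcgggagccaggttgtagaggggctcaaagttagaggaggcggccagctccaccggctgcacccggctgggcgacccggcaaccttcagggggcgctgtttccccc
COL9A2: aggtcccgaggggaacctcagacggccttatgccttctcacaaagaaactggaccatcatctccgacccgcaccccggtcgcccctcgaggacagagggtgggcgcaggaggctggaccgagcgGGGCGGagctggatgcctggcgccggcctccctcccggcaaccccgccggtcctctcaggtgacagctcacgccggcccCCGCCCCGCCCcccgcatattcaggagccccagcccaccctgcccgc

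The motifs were searched on both strands: GGGCGG for the GC box, TATAAA for the TATA box, CCAAT for the CCAAT box, CACGTG for the E-box, TGANTCA for the AP-1 element, TGACGTCA for the cyclic AMP response element, TTNNGNAA for the C/EBP element and TGACNNNGC for the antioxidant response element. LTF held a GC box that began 49 bases before the start, and a CCAAT box on the other strand (60 bases before) that shares letters with a match to the C/EBP element (59 bases before). PEX5L held 2 GC boxes on the other strand, 206 and 196 bases before its start. COL9A2 held 3 GC boxes, at 126, 47 and 42 bases before the start, and the last 2 share a base. PKN3 held a match to none of the 8 motifs in this window. Among 35116 RefSeq promoter windows of this length, 42.6% held a GC box, 32.0% a CCAAT box and 33.2% the C/EBP element, so these matches are common. The others were rarer: 10.7% held the TATA box, 6.34% the E-box, 6.57% the AP-1 element, 1.65% the cyclic AMP response element and 10.9% the antioxidant response element. PEX5L had 40 CpG dinucleotides in its window, more than 97.8% of promoters, COL9A2 22, PKN3 13 and LTF 10, against a median of 11. The 4 windows thus had no searched motif in common. A match describes letters and not a bound site.

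LTF stood at 8.21, 7.57 and 8.57 TPM in the DMSO libraries and at 9.49, 9.30 and 9.60 TPM after 1 h. At 3 h it stood at 21.3, 19.4 and 21.3 TPM, and at 6 h at 21.3, 21.1 and 24.9 TPM. At 24 h the libraries were at 68.1, 67.0 and 65.7 TPM, an 8.25-fold higher mean than in DMSO (66.9 ± 1.20 against 8.12 ± 0.509, SD, n = 3) and a change of 2.90 (SE 0.064). Every library at 3 h or later was above every library of DMSO and 1 h, the 3 h and 6 h libraries overlapped each other, and the 24 h libraries stood apart from all others. LTF thus already stood apart from DMSO at 3 h, so the description of the set as late covers only part of its course.

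PEX5L was at 7.55, 6.78 and 8.31 TPM in DMSO and at 7.93, 7.99 and 7.78 TPM after 1 h. It then stood at 3.10, 2.95 and 3.77 TPM at 3 h, and at 4.62, 4.58 and 4.59 TPM at 6 h. After 24 h the libraries were at 31.5, 29.0 and 28.0 TPM, a mean 3.91-fold that of DMSO and 6.42-fold that of 6 h. The 3 h and 6 h libraries were all below all DMSO libraries, and those at 24 h were all above them, so PEX5L crossed its DMSO level between 6 h and 24 h.

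ABTB1 was at 10.7, 10.2 and 12.1 TPM in DMSO, at 11.8, 11.4 and 10.3 TPM after 1 h and at 8.37, 7.76 and 8.93 TPM after 3 h. It was at 14.6, 14.0 and 15.1 TPM at 6 h and at 39.0, 37.7 and 36.5 TPM at 24 h, 3.43-fold the DMSO mean. The 3 h libraries lay below the DMSO libraries without overlap, and the 6 h libraries lay above them.

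PKN3 was at 5.45, 4.46 and 5.33 TPM in DMSO and at 5.30, 5.28 and 4.93 TPM after 1 h. Its libraries were at 3.51, 3.17 and 3.66 TPM at 3 h, at 4.66, 4.26 and 4.57 TPM at 6 h and at 17.8, 19.1 and 16.1 TPM at 24 h, 3.48-fold the DMSO mean. PKN3 was lowest at 3 h, overlapped DMSO again at 6 h and was above every other group at 24 h.

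COL9A2 was the lowest of the 5 in DMSO, at 3.82, 3.88 and 3.89 TPM, and was at 3.99, 3.97 and 3.23 TPM after 1 h. Its libraries were at 3.96, 3.40 and 4.49 TPM at 3 h, at 4.77, 4.56 and 4.82 TPM at 6 h and at 13.0, 14.3 and 13.8 TPM at 24 h, 3.56-fold the DMSO mean. The 1 h and 3 h libraries overlapped those of DMSO, and the 6 h libraries were slightly above them.

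**Figure D1:**
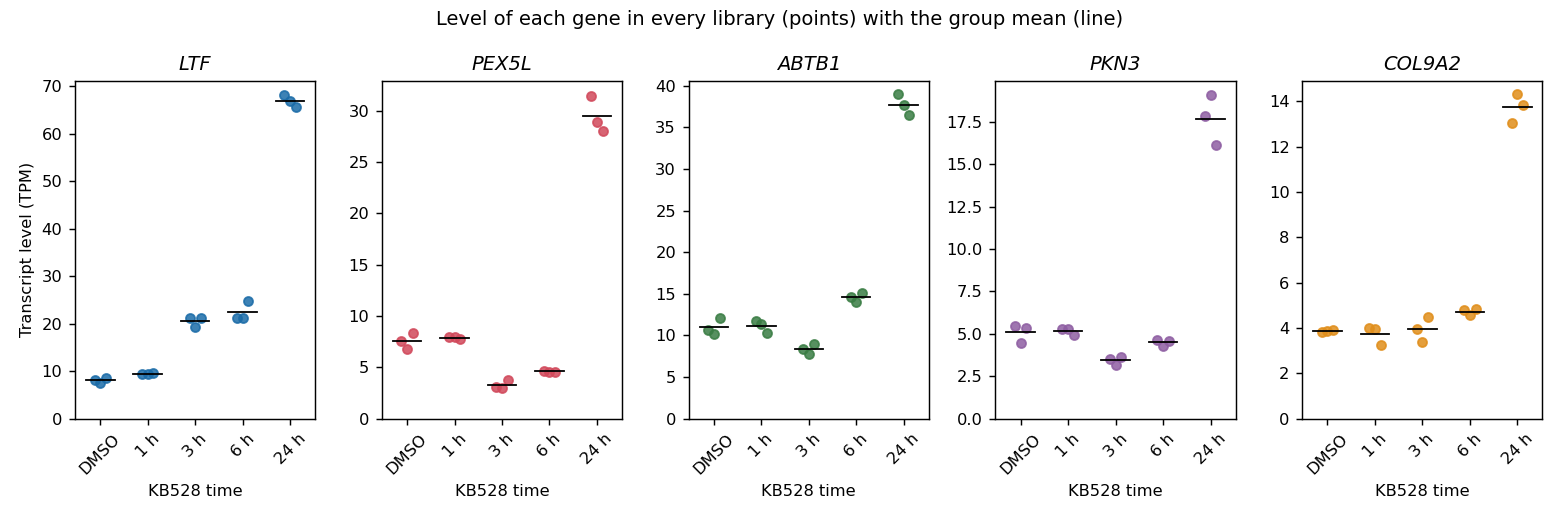
Transcript level in TPM (y axis, linear, starting at 0, its own scale for each gene) of LTF, PEX5L, ABTB1, PKN3 and COL9A2 in DMSO and after 1, 3, 6 and 24 h of KB528 (x axis); points are the 3 libraries of a group and the bar is their mean. The 24 h libraries of each gene lie above all its other libraries, and LTF alone has all 3 of its 3 h libraries above its DMSO libraries.

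In DMSO the order of the levels was ABTB1, LTF, PEX5L, PKN3 and COL9A2, and the libraries of LTF and PEX5L overlapped. The same order stood at 1 h, where no neighbours in it overlapped. At 3 h and 6 h LTF came first and ABTB1 second, while COL9A2, PKN3 and PEX5L overlapped their neighbours in the order. At 24 h the order was LTF, ABTB1, PEX5L, PKN3 and COL9A2, with no overlap between neighbours. Against all 12002 tested genes, the level of LTF moved from the 33.8th percentile in DMSO to the 80.3rd at 24 h, and that of COL9A2 from the 19.3rd to the 41.4th. The chosen genes were thus expressed below the middle of the tested genes in DMSO, and 3 of them were above it at 24 h.

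As a share of the TPM difference between 24 h and DMSO, LTF had 21.3% at 3 h and 24.4% at 6 h. ABTB1 had 13.4% and COL9A2 8.66% at 6 h. PEX5L was at -19.5% at 3 h and -13.5% at 6 h, and PKN3 at -12.9% and -4.63%, the minus sign marking levels below DMSO. For each of the 5 genes the greater part of the difference thus lay between the 6 h and 24 h samples. From 6 h to 24 h the changes were 1.54 for LTF, 2.44 for PEX5L, 1.31 for ABTB1, 1.76 for PKN3 and 1.37 for COL9A2, beside 67.0% of all tested genes called between these times, 41.0% higher and 26.0% lower. They are again given with no test, since the 24 h libraries chose the genes.

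The comparisons of 1, 3 and 6 h with DMSO use treated libraries that the rule did not, but share its DMSO libraries. At 1 h, 1 of the 5 genes was called, where 22.6% of all tested genes were called. It was LTF, which rose by 0.20 (SE 0.064, limma adjusted p = 0.0348). This small call held in 7 of 15 alternative analyses. It was lost when any one library of DMSO or 1 h was left out, except DMSO replicate 3 (adjusted p = 0.0678 to 0.128), with no filter on low values (0.0600), with a fit of those 2 groups alone (0.104) and with spike-in scaling (1.00). The other 4 had changes of -0.045 (COL9A2) to 0.062 (PEX5L), with adjusted p of 0.586 or more.

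At 3 h, 4 of the 5 were called, 1 higher and 3 lower, where 56.9% of all tested genes were called, 24.9% higher and 32.0% lower. LTF rose by 1.25 (SE 0.064, adjusted p = 3.99e-10), 2.54-fold on the TPM scale. PEX5L fell by 1.00 (SE 0.077, adjusted p = 4.47e-08), to 0.434 of its DMSO mean. PKN3 fell by 0.45 (adjusted p = 0.000167) and ABTB1 fell by 0.36 (adjusted p = 0.000433). The change of COL9A2 was 0.020 (adjusted p = 0.848). At this time the 5 genes, all of which were high at 24 h, thus stood on both sides of their DMSO levels. The change of LTF lay above the 95th percentile of all tested genes (0.59) and that of PEX5L below the 5th percentile (-0.73).

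At 6 h, 4 of the 5 were called, 3 higher and 1 lower, against 68.9% of all tested genes, 44.4% higher and 24.5% lower. LTF was higher than in DMSO by 1.36 (SE 0.064, adjusted p = 1.48e-10) and PEX5L lower by a log2 difference of -0.61 (SE 0.077, adjusted p = 5.28e-06). ABTB1 rose by 0.38 (adjusted p = 0.000176) and COL9A2 by 0.23 (adjusted p = 0.0193). PKN3 had a change of -0.14 (adjusted p = 0.115). The call of COL9A2 was lost with median-ratio scaling (0.10, adjusted p = 0.257), with spike-in scaling (0.39, adjusted p = 0.0753) and without 6 h replicate 3 (0.22, adjusted p = 0.0543). PKN3 was called lower with median-ratio scaling (-0.28, adjusted p = 0.000940) and without DMSO replicate 2 (-0.22, adjusted p = 0.0181), and its sign turned with spike-in scaling (0.014).

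**Figure D2:**
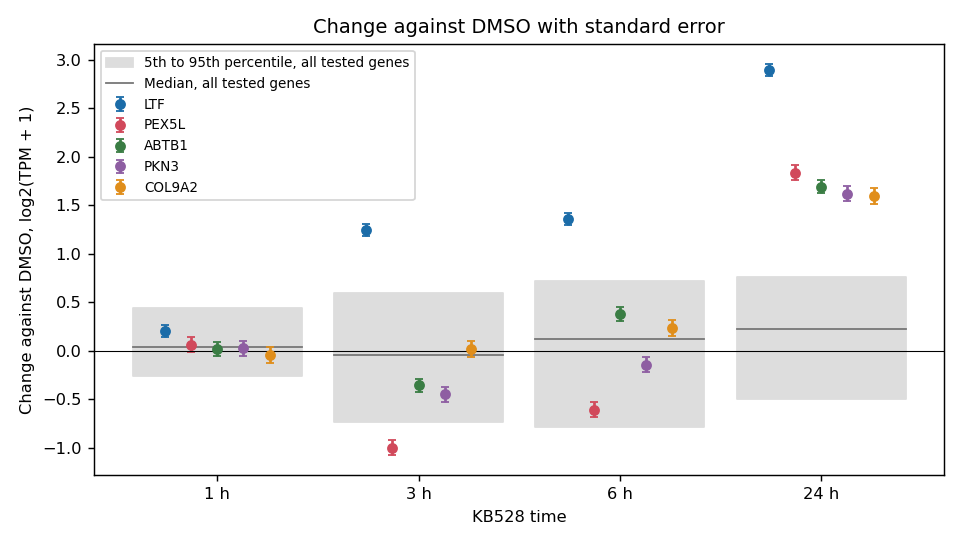
Change against DMSO on the log2(TPM + 1) scale (y axis) at 1, 3, 6 and 24 h (x axis) for the 5 genes; points are the fitted changes, bars their standard errors, the grey band the 5th to 95th percentile and the dark line the median of all 12002 tested genes. LTF lies above the band from 3 h on and PEX5L below it at 3 h, and all 5 lie above it at 24 h, the time by which they were chosen.

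The steps between consecutive treated times use no library of the rule up to 6 h. From 1 h to 3 h, 4 of the 5 were called, 1 higher and 3 lower, where 47.0% of all tested genes were called, 15.2% higher and 31.8% lower. LTF rose by 1.05 (adjusted p = 5.86e-09), PEX5L fell by 1.06 (adjusted p = 3.79e-08), PKN3 fell by 0.47 (adjusted p = 0.000151) and ABTB1 fell by 0.38 (adjusted p = 0.000405), while COL9A2 had a change of 0.064 (adjusted p = 0.545). From 3 h to 6 h, 4 of the 5 were called, where 56.0% of all tested genes were called, 42.3% higher and 13.7% lower, and all 4 rose. ABTB1 rose by 0.74 (SE 0.069, adjusted p = 5.57e-07), PEX5L by 0.39 (adjusted p = 0.000556), PKN3 by 0.31 (adjusted p = 0.00367) and COL9A2 by 0.21 (adjusted p = 0.0368). LTF had a change of 0.11 between these times (adjusted p = 0.148). The 4 genes other than LTF were thus higher at 6 h than at 3 h, before the 24 h sample, although PEX5L was still below DMSO. The call of COL9A2 held in 6 of 15 alternatives and was weakest without 3 h replicate 2 among the left-out libraries (0.13, adjusted p = 0.184). LTF was called higher from 3 h to 6 h only with spike-in scaling (0.51, adjusted p = 0.0211), and its sign turned with median-ratio scaling (-0.040).

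Over the 15 libraries, the log2(TPM + 1) values of PEX5L and PKN3 had the highest Pearson r of any pair of the 5 genes (0.98) and those of LTF and PEX5L the lowest (0.58). LTF had r of 0.73 with PKN3, 0.81 with ABTB1 and 0.89 with COL9A2, while the pairs without LTF lay between 0.87 and 0.98. These correlations are descriptions, since all 5 genes were chosen for a high 24 h level and share the libraries and their depth.

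Among 9315 other genes with mean levels of 5 TPM or more, those whose values over the 15 libraries were most like LTF were QSOX1 (r = 0.972), a sulfhydryl oxidase gene, TM7SF2 (0.968), which acts in sterol synthesis, and CTNNBIP1 (0.967), an inhibitor of beta-catenin. QSOX1 was at 8.23 TPM in DMSO, 10.1 at 3 h, 12.2 at 6 h and 16.6 at 24 h, a gradual course without the large 3 h step of LTF. Most like PEX5L were CCDC125 (0.990), TAZ (0.990), the older symbol of tafazzin, and the zinc finger gene ZFP90 (0.989). CCDC125 was at 12.5 TPM in DMSO, 9.30 at 3 h and 20.4 at 24 h, and so shared the dip. ENO2 (0.992), an enolase gene, PLS1 (0.991) and ANKMY2 (0.991) were most like ABTB1. ENO2 was at 30.7 TPM in DMSO, 26.6 at 3 h, 35.3 at 6 h and 68.5 at 24 h. IFT80 (0.992), which encodes a protein of ciliary transport, TCTN1 (0.990), a gene of the ciliary transition zone, and the calpain gene CAPN1 (0.989) were most like PKN3. COL9A2 was followed most closely by DHRS7 (0.985), LOC81691 (0.984) and MR1 (0.984), an antigen-presenting molecule. DHRS7 was at 14.1 TPM in DMSO, 16.8 at 6 h and 31.3 at 24 h. The changes of these 15 genes at 24 h ranged from 0.49 (TAZ) to 1.13 (ENO2).

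The nearest relatives of the 5 genes took different courses. Type IX collagen is built from the chains of COL9A1, COL9A2 and COL9A3. COL9A3 was at 14.2, 14.5 and 14.6 TPM in DMSO, 7.30, 7.05 and 7.76 TPM at 3 h, 3.41, 2.84 and 3.55 TPM at 6 h and 8.83, 8.94 and 8.86 TPM at 24 h. It fell at each of these times against DMSO, with changes of -0.88 at 3 h (adjusted p = 7.02e-07), -1.86 at 6 h (adjusted p = 1.59e-10) and -0.64 at 24 h (adjusted p = 1.24e-05). From 6 h to 24 h COL9A3 rose by 1.21 (adjusted p = 1.53e-08), beside a change of 1.37 for COL9A2. COL9A1 had at most 0.0750 TPM in any library. COL9A3 was thus the more abundant of the 2 measurable chains in DMSO, and COL9A2 the more abundant at 6 h and 24 h. At 6 h COL9A2 was at 4.72 ± 0.139 TPM against 3.27 ± 0.378 TPM for COL9A3. At 24 h the levels were 13.7 ± 0.655 against 8.88 ± 0.0552 TPM (SD, n = 3).

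PKN2, a relative of PKN3, went from 7.17 ± 0.661 TPM in DMSO to 10.5 ± 0.812 TPM after 24 h (SD, n = 3, change 0.49, adjusted p = 3.43e-05), 1.46-fold beside 3.48-fold for PKN3. At 3 h, when PKN3 fell, PKN2 rose by 0.30 (adjusted p = 0.00319). Both calls of PKN2 were lost with spike-in scaling (adjusted p = 0.0548 at 24 h and 0.726 at 3 h).

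PEX5, the import receptor to which PEX5L is related, had 26.3 ± 3.31 TPM with DMSO and 27.3 ± 1.17 TPM after 24 h (change 0.055, adjusted p = 0.522). It was called lower at 24 h with median-ratio scaling (-0.13, adjusted p = 0.0444). Of genes for the HCN channels that TRIP8b binds, HCN2 and HCN4 were under 1 TPM in every library. HCN3 was at 5.32, 5.68 and 6.53 TPM in DMSO, 3.47, 2.79 and 3.57 TPM at 3 h and 11.3, 12.3 and 10.8 TPM at 24 h. It fell by 0.68 at 3 h (adjusted p = 5.63e-06) and rose by 0.87 at 24 h (adjusted p = 3.78e-07). HCN3 and PEX5L thus both had their lowest levels at 3 h and their highest at 24 h, as did ABTB1 and PKN3. Of all tested genes, 32.0% were called lower at 3 h and 56.1% higher at 24 h. At 6 h the change of HCN3 was 0.020 (adjusted p = 0.841), beside -0.61 for PEX5L.

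In the transferrin family, TF had at most 0.0442 TPM in any library, and MFI2, the older symbol of the melanotransferrin gene MELTF, rose from 0.871 ± 0.0528 TPM in DMSO to 2.35 ± 0.373 TPM after 24 h (change 0.83, adjusted p = 3.15e-07). ABTB2, the closest relative of ABTB1, was too low to be tested. It was at 0.509 ± 0.0675 TPM in DMSO, 1.34 ± 0.247 TPM at 3 h and 0.297 ± 0.0545 TPM at 24 h, with libraries at 3 h above and at 24 h below those of DMSO. BTBD11 had at most 0.0628 TPM in any library. For ABTB1 and ABTB2 the ordering of the 3 h and 24 h levels was therefore opposite.

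**Figure D3:**
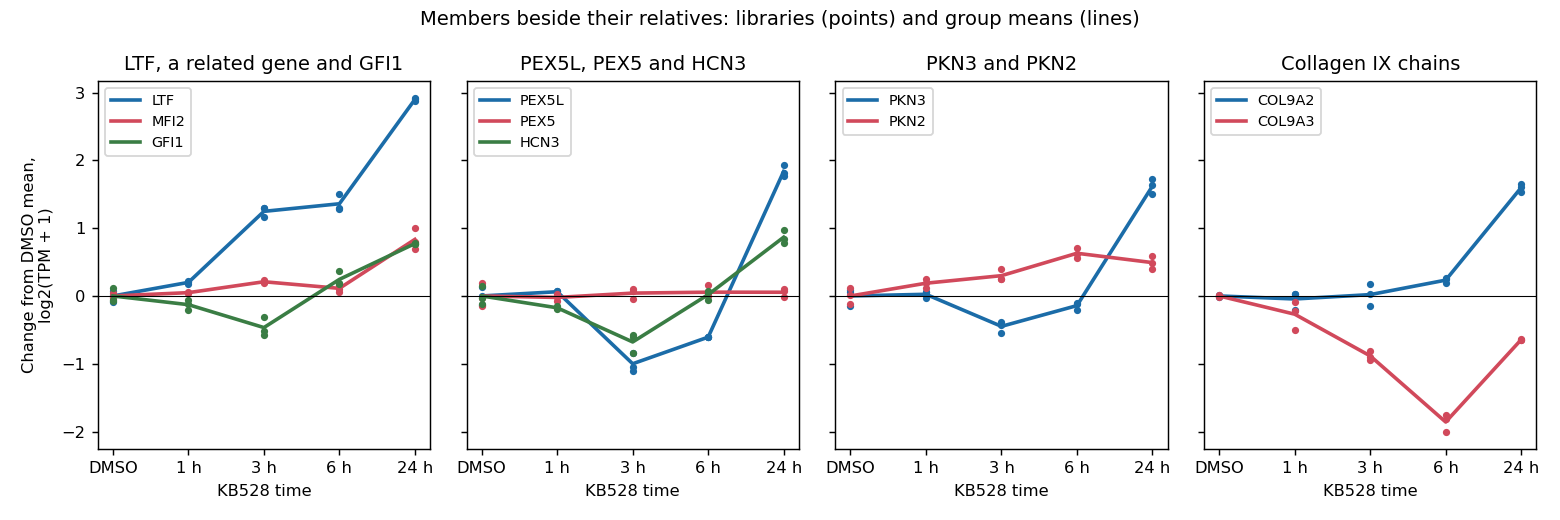
Change from the DMSO mean on the log2(TPM + 1) scale (y axis) in DMSO and after 1, 3, 6 and 24 h of KB528 (x axis) for LTF, PEX5L, PKN3 and COL9A2 (blue) beside related genes and GFI1; points are libraries and lines join group means. COL9A3 lies below DMSO where COL9A2 is above it at 6 h and 24 h, PEX5 stays near 0, and HCN3 has its lowest point at 3 h as PEX5L does.

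The 5 genes were set beside lists of genes of their pathways and of cell types in which they are known. At 24 h, 71.4% of all 12002 genes were called, 56.1% higher (6738) and 15.2% lower (1826), with a median change of 0.23. With median-ratio scaling, which shifted changes at 24 h by -0.19, the split was 4618 higher and 3485 lower.

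Lactoferrin is a protein of the secondary granules of neutrophils, and 24 genes of neutrophil granules were examined. Of these, 20 were under 1 TPM in every library, among them LCN2, CAMP and MMP8, which are stored together with lactoferrin, and CRISP3, ELANE, DEFA4, S100A12 and ARG1 were at 0 in every library. The 3 that could be tested fell at 24 h, with changes of -0.48 for CYBB, the heavy chain of the phagocyte oxidase (adjusted p = 4.26e-06), -0.38 for CHI3L1 (adjusted p = 0.000550) and -0.75 for S100A9 (adjusted p = 0.00144). With spike-in scaling only S100A9 was called, and CYBB (adjusted p = 0.0518) and CHI3L1 (0.106) were not. The summed level of the list was 123 to 147 TPM in DMSO and 94.5 to 102 TPM at 24 h, most of it from CYBB. LTF was thus high at 24 h with LCN2, CAMP and MMP8 near 0, while CHI3L1 was at 5.36 TPM and CYBB made up most of the list. Of the granulocyte transcription factors, 4 of 7 could be tested and 2 rose at 24 h. GFI1, a repressor needed for neutrophil development, rose from 7.43 ± 0.641 to 13.4 ± 0.0145 TPM (0.77, adjusted p = 8.20e-07), and CEBPG rose by 0.25 (adjusted p = 0.000673), a call lost with median-ratio scaling (0.070, adjusted p = 0.0805). At 3 h, when LTF was already higher, GFI1 was lower than in DMSO (-0.47, adjusted p = 0.000152), and 1 of the 4 was called higher and 3 lower. CEBPE, which drives secondary granule genes in granulocytes, was at 0 in every DMSO and 24 h library.

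Of 17 tested iron handling genes, 7 rose and 4 fell at 24 h, with a median change of 0.13, below that of all genes. HMOX1, which degrades heme and releases its iron, rose from 151 ± 9.08 to 569 ± 11.1 TPM (1.91, adjusted p = 1.84e-13). The ferritin chains moved apart, FTH1 by 0.56 (adjusted p = 1.48e-07) and FTL by -0.53 (adjusted p = 1.63e-08). TFRC, the transferrin receptor, fell by 0.61 (adjusted p = 3.01e-07). With median-ratio scaling 6 rose and 8 fell, and with spike-in scaling 5 rose and 3 fell.

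Of 15 tested peroxin genes, which encode the machinery of peroxisome assembly, 13 rose and 0 fell, with a median of 0.35. PEX19 rose by 0.54 (adjusted p = 1.14e-08) and PEX11A, a gene of peroxisome division, by 0.85 (adjusted p = 1.40e-07). With median-ratio scaling 9 rose and 2 fell, and with spike-in scaling 5 rose and 0 fell. These genes serve peroxisomes, whereas PEX5L is best known as a channel subunit.

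Among 38 tested genes of BTB proteins and CUL3 adaptors, 26 rose and 1, KBTBD8, fell, with a median of 0.31. KLHL42 rose by 0.98 (adjusted p = 1.15e-08), KLHL12, an adaptor that acts on COPII coats, by 0.64 (adjusted p = 3.47e-08) and BTBD6 by 0.53 (adjusted p = 4.25e-07). With median-ratio scaling 18 rose and 7 fell. With spike-in scaling 10 rose and 0 fell, and KBTBD8 was not called (adjusted p = 0.391).

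Of 14 cartilage matrix genes, 13 were under 1 TPM in every library, COL2A1 and SOX9 among them, and COL9A3 was the only one tested. Of 8 other collagen genes tested, 3 rose and 3 fell at 24 h. COL24A1 rose by 0.58 (adjusted p = 5.73e-06) and COL18A1 fell by 0.91 (adjusted p = 1.05e-06). With spike-in scaling 3 rose and 1 fell. Of 11 genes for the folding and modification of collagen, 7 rose and 2 fell, with a median of 0.38. The lysyl hydroxylase PLOD1 rose by 0.61 (adjusted p = 2.44e-07), the prolyl hydroxylase subunit P4HA1 by 0.69 (adjusted p = 3.49e-07), the prolyl hydroxylase P3H1 by 0.55 (adjusted p = 7.70e-07) and the collagen chaperone SERPINH1 by 0.56 (adjusted p = 9.10e-07). The 2 that fell were PPIB, by a change of -0.44 (adjusted p = 9.30e-07), and P4HB (-0.16, adjusted p = 0.00610). With median-ratio scaling 7 rose and 3 fell, and with spike-in scaling 4 rose and 0 fell. COL9A2 was thus high at 24 h with the other cartilage genes under 1 TPM or, for COL9A3, lower than in DMSO.

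All 9 tested plasma cell markers fell at 24 h, with a median of -0.62, and their summed level went from 3753 to 3893 TPM in the DMSO libraries to 1943 to 1977 TPM in those at 24 h. MZB1 fell by 1.16 (adjusted p = 1.29e-11) and TNFRSF17, which encodes BCMA, fell by 1.28 (adjusted p = 3.15e-10). With spike-in scaling 7 of the 9 were called lower. In bulk RNA, fewer cells of a type and less RNA per cell cannot be told apart. Markers of other cell types were low: 10 of 11 neuron markers, 4 of 6 T cell markers and 4 of 6 monocyte markers were under 1 TPM in every library. The neuron markers STMN2 and GAP43 and the T cell markers CD3D and CD2 were at 0 in every library. Their summed levels at 24 h were 7.01 to 9.11 TPM for the neuron list, nearly all TUBB3, which changed by -0.71 (adjusted p = 2.40e-06), 3.54 to 4.50 TPM for the T cell list and 36.5 to 38.8 TPM for the monocyte list. The part of these genes in the levels of the 5 chosen genes was not tested. Of the T cell list 1 gene rose, CD8A (0.38, adjusted p = 0.00354, not called with spike-in scaling, adjusted p = 0.0977), and 1 fell, CD4 (-0.44, adjusted p = 0.000536), and of the monocyte list CD68 fell by 0.50 (adjusted p = 4.14e-06) and CD14 had a change of -0.090 (adjusted p = 0.420).

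Of the 5 genes, 3 lie on chromosome 3 (LTF, PEX5L and ABTB1), PKN3 lies on chromosome 9 and COL9A2 on chromosome 1, and none is the neighbour of another. The nearest protein-coding genes of the table on each side, were taken from the RefSeq gene order. Beside LTF, CCRL2 had 0.206 TPM with DMSO and 0.334 TPM after 24 h, and RTP3 was at most at 0.0526 TPM at 24 h, both too low for a test. Beside PEX5L, USP13 rose by 0.59 (adjusted p = 6.00e-06) and TTC14 by 0.75 (adjusted p = 3.51e-08) at 24 h. Beside ABTB1, PODXL2 fell by 0.36 (adjusted p = 0.000191) and MGLL, the monoglyceride lipase gene, went from 71.3 ± 3.69 to 24.6 ± 0.325 TPM, a change of -1.50 (adjusted p = 7.28e-12). ABTB1 and MGLL thus lay next to each other with 24 h levels on opposite sides of DMSO.

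Beside PKN3, SET had a change of 0.071 (adjusted p = 0.103) and ZDHHC12 rose from 206 ± 0.464 to 302 ± 6.04 TPM (0.55, adjusted p = 1.17e-07). ZDHHC12 is on the other strand and its end overlaps that of PKN3 by 50 bases in the GENCODE annotation. The libraries were strand-specific, but whether the counting used strand is not stated in the sources, so reads in this overlap cannot be assigned. At 3 h, PKN3 fell while ZDHHC12 was at 205 TPM beside 206 TPM in DMSO. PEX5L overlaps the antisense genes PEX5L-AS1 and PEX5L-AS2, and PKN3 overlaps RN7SL560P by 264 bases on the same strand. None of these has a row of values under that name, so their levels could not be examined. Beside COL9A2, ZMPSTE24 had a change of -0.018 (adjusted p = 0.745) and SMAP2 of 0.19 (adjusted p = 0.0148). With median-ratio scaling the call of SMAP2 was lost (0.0017, adjusted p = 0.975), and SET (-0.12) and ZMPSTE24 (-0.20) were called lower. With spike-in scaling PODXL2 was no longer called (adjusted p = 0.155).

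**Figure D4:**
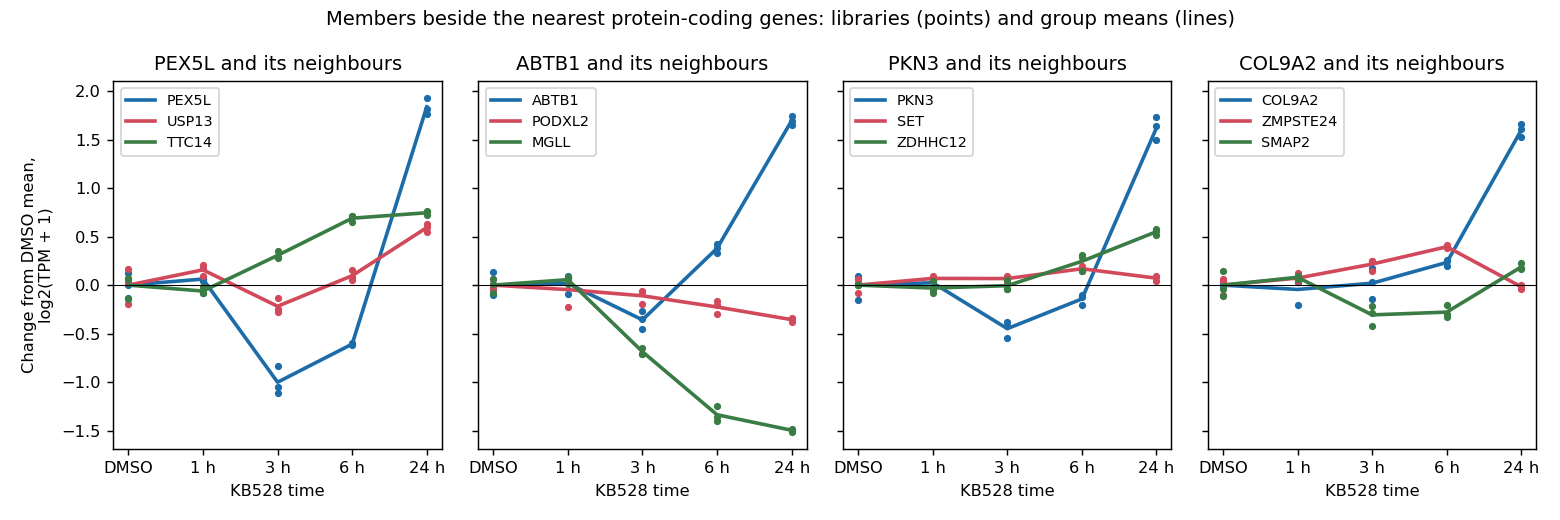
Change from the DMSO mean on the log2(TPM + 1) scale (y axis) in DMSO and after 1, 3, 6 and 24 h of KB528 (x axis) for PEX5L, ABTB1, PKN3 and COL9A2 (blue) and the nearest protein-coding genes of the table on each side; points are libraries and lines join group means. At 24 h, the time by which the blue genes were chosen for their high values, each blue line lies above both neighbours. MGLL, beside ABTB1, lies at -1.50 there.

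Estimated counting error, relative to the level, was smallest at 24 h for each of the 5 genes, where the read numbers were largest. The spread between libraries did not follow this for every gene. For PEX5L the SD was 1.80 TPM around 29.5 TPM at 24 h and 0.0250 TPM around 4.60 TPM at 6 h. For ABTB1 it was 1.26 TPM around 37.7 TPM at 24 h and 0.996 TPM around 11.0 TPM in DMSO, a smaller share of the level at 24 h. Each SD comes from 3 libraries. With GENCODE transcript lengths, the steps of the low values put COL9A2 at an estimated 202 to 414 reads per library up to 6 h and at 869 to 1024 at 24 h, and LTF at 673 to 2154 and at 5087 to 5356. At 202 reads, counting alone gives a coefficient of variation of 7.03%. The lowest COL9A2 library at 1 h, replicate 3 at 3.23 TPM against 3.99 and 3.97 TPM, was the one with this estimate. These read numbers depend on the assumed transcript lengths and cover counting error only.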

How the data were processed

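Messenger RNA of 15 libraries (5 groups of 3) was made with strand-specific NEB kits, per the labels' protocols. STAR, featureCounts, FastQC and MultiQC and the build hg19 are named in the submitters' processing notes, without versions or roles. The authors deposited TPM values in 1 table of 26456 rows, of which 92 are ERCC spike-ins. Columns were matched to samples by time and replicate number, and 0 were unused. The sources used here do not give read totals.

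The values were tested as log2(TPM + 1), pseudocount 1, with limma 3.58.1 in R 4.3.3 (lmFit, eBayes with a variance trend), all 15 libraries in 1 fit, over the 12002 genes whose mean reached 1 TPM. Benjamini-Hochberg adjustment of p-values ran over all of these, threshold 0.05. Differences on this scale understate the change of low genes. The test was checked on simulated data with independent normal noise of the spread seen here. Such a check cannot cover effects shared among libraries. Spike-in rows stayed out of the tests. The genes and the lists were chosen with earlier results of these data known. Named are the 5 genes, the 3 genes most correlated with each, the nearest protein-coding gene on each side, their families, the 5 genes above and below COL9A2 in rank, and up to 4 called genes per list with the smallest adjusted p at 24 h; T cell, monocyte and neuron genes of the marker lists, secondary granule genes, KBTBD8, PPIB and P4HB were named after their values were seen. Some list results and relatives are not reported here. Fold is the ratio of mean TPM. Sequences are from RefSeq tables of GRCh38.p14, and no coordinates of the files' build were used. Alternatives were pseudocount 0.1, filtering at 5 TPM or not at all, median-ratio scaling (from genes that reach 5 TPM in every library), spike-in scaling, no variance trend, only the compared groups, a replicate block, each library left out, and, added after seeing the data, spike-ins left out of the total. Same-numbered DMSO and 6 h libraries deviated together in all 3 pairs (r of 0.136 to 0.152), a pairing seen in the data and not stated in the labels; no other 2 groups did so in every pair. Replicates correlated across genes with r of 0.995 to 0.998. Tables and figures used Python 3.11.15, numpy 2.4.6, pandas 2.3.3 and matplotlib 3.10.9.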

Additional observations from a re-analysis of the deposited data

How the results depend on the processing

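At 24 h the 5 genes kept values of 1.43 (COL9A2, median-ratio scaling) to 3.03 (LTF, pseudocount 0.1). The calls at 3 h against DMSO and 1 h held in all 15 alternatives for LTF, PEX5L, ABTB1 and PKN3, as did those of LTF, PEX5L and ABTB1 at 6 h. At 1 h, 0 of the 5 genes were called with no filter, with spike-in scaling and with only the compared groups, and 0 to 1 when a library was left out. Spike-in scaling, whose factors had within-group SDs of 0.12 to 0.32 (log2), left 471 genes called at 1 h, 2934 at 3 h, 5113 at 6 h, 3096 at 24 h, 2151 from 1 h to 3 h and 3677 from 6 h to 24 h, and 53 of 136 tested list genes in place of 107. With only the compared groups 1723 genes were called at 1 h in place of 2710. The shift from median-ratio scaling was -0.16 at 6 h. That from spike-in scaling was -0.22 at 3 h and 0.19 at 6 h. The split of higher and lower genes moved from 1802 and 908 to 1852 and 1779 at 1 h, and from 5327 and 2945 to 3852 and 4590 at 6 h, with median-ratio scaling, and from 2991 and 3836 to 411 and 2523 at 3 h with spike-in scaling. From 3 h to 6 h it moved from 5074 and 1648 to 3105 and 3581 with median-ratio scaling, and to 7362 and 232 with spike-in scaling. With spike-ins left out of the total, it was 3475 and 3480 at 3 h. Signs turned only for values that were not called: with median-ratio scaling ABTB1 (-0.031) and PKN3 (-0.019) at 1 h and LTF from 3 h to 6 h (-0.040), with spike-in scaling ABTB1 (-0.035) and PKN3 (-0.025) at 1 h, COL9A2 at 3 h (-0.16) and from 1 h to 3 h (-0.070), and PKN3 at 6 h (0.014). With a library left out, values at 1 h ranged from -0.031 to 0.083 for ABTB1, -0.0034 to 0.13 for PEX5L, -0.051 to 0.069 for PKN3 and -0.085 to 0.033 for COL9A2, and COL9A2 ranged from -0.058 to 0.10 at 3 h and from -0.014 to 0.15 from 1 h to 3 h. The cause was not tested. Deviations of libraries with the same replicate number correlated above 0.1 in 7 of 30 pairs, against 8 of 60 pairs with different numbers, and 23 of 60 best matches had the same number. With the replicate block 107 list genes were called, no call of the 5 genes changed, and no count of calls moved by over 1.5 times. Depth limits COL9A2 most, which had the fewest estimated reads of the 5 genes.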
